A study of Homo sapiens with 6 samples.

Results

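The 10 genes described here encode the NF-kB transcription factor subunits (NFKB1, NFKB2, REL, RELA, RELB) and regulators that act on them (NFKBIA, NFKBIE, TNFAIP3, BIRC3, CHUK). They are a fixed list of gene symbols, drawn up with earlier results of these data known, and each matched 1 of the 39168 Ensembl identifiers in the deposited count table. All 10 were among the 12821 genes with enough reads to be tested. RNA sequencing compared CAL62 cells, an established human anaplastic thyroid carcinoma (ATC) line of wild-type genotype by its labels, after 48 h in 50 nM erianin or in DMSO, with 3 libraries per group. Erianin is a natural compound from Dendrobium under study against this cancer, and DMSO is its solvent. Both groups were grown in RPMI medium with fetal bovine serum, penicillin and streptomycin. The groups therefore differed by label in erianin alone, in 1 cell line, at 1 dose and at 1 time. The design text calls the replicates separate experiments, and nothing in the labels says how the cultures were split, so the p-values measure the spread between these libraries.

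NF-kB is a family of dimers built from 5 related proteins. In resting cells most dimers are held in the cytoplasm by IkB proteins. In the canonical pathway, kinases of the IKK complex mark the IkB proteins for degradation, and RELA- and REL-containing dimers enter the nucleus. In the non-canonical pathway, CHUK (IKKα) acts on the p100 product of NFKB2, which is processed to p52, the partner of RELB. The pathway shuts itself off, since NF-kB induces genes such as NFKBIA, NFKBIE and TNFAIP3 (A20). Their products retain the dimers or edit the ubiquitin chains that carry the signal. BIRC3 (cIAP2), also induced, encodes a ubiquitin ligase that restrains the kinase of the non-canonical pathway. In thyroid carcinoma and other tumors NF-kB activity is known for its links to survival and to chemokine expression. The transcript levels described below do not measure where the proteins are or how active they are.

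The DNA element bound by NF-kB is the kappaB site. RefSeq promoters on GRCh38.p14, each reaching from 250 bases before to 50 bases after an annotated start, were searched on both strands for the kappaB consensus of 10 bases. Of the 10 genes, 8 had an entry in the promoter table, and RELB and NFKBIE had none. A match was found for 6 of the 8 (75.0%), namely NFKB1, NFKB2, REL, NFKBIA, TNFAIP3 and BIRC3, against 7.09% of the 27305 genes and 5.91% of the 35116 promoters in the table. Such a share was not particular to them. In the lists described further below, 4 of 4 other IkB family genes and 7 of 18 textbook NF-kB targets had a match. So did 3 of 17 adaptors and ubiquitin editors, 1 of 8 kinase genes and 0 of 8 receptor genes. The promoters of RELA and CHUK held no match in this window. The matches are shown because they are the DNA element through which this family is known to act on its own genes. Each is written 5′ to 3′ on the strand of its gene, with the match in capitals.
TNFAIP3, chr6:137867188-137867217, plus strand: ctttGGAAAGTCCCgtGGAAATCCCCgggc
BIRC3, chr11:102317234-102317449, plus strand: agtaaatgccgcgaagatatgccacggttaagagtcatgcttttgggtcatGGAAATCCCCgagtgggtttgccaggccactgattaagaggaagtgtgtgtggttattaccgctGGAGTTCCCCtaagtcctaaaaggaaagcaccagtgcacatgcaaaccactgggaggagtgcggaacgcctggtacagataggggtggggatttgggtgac
NFKBIA, chr14:35404811-35404840, minus strand: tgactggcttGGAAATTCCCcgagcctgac
NFKB1, chr4:102501300-102501329, plus strand: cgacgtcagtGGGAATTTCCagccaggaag
NFKB2, chr10:102395674-102395703, plus strand: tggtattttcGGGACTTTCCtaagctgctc
REL, chr2:60881517-60881546, plus strand: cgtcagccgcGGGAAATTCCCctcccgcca
TNFAIP3 held 2 matches, which began 67 and 55 bases before the RefSeq start, and its printed stretch opens at the first base of the gene in GENCODE 29. BIRC3 also held 2, which began 199 and 135 bases before the start, and its stretch is the part of the promoter that lies before the GENCODE gene. One 10-base word, GGAAATCCCC, occurs in both promoters. The NFKB1 match began 49 bases and the NFKBIA match 81 bases before the start. In REL the capitals hold 2 matches that overlap by all but 1 base. NFKB2 had matches at 2 of its 3 annotated starts, and the one printed began 21 bases before the third start, inside the GENCODE gene. A match says that the letters are present, not that the site was bound in these cells.

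Between 25776301 and 34107727 reads were counted on named genes per library. DMSO replicate 3 stood apart from the other DMSO libraries. Its distance to them in log2 CPM (counts scaled to library size with TMM factors) was 64.1 and 62.9. Distances were 37.2 between DMSO replicates 1 and 2 and between 28.2 and 29 among erianin replicates. DMSO replicate 3 lay farther from DMSO replicates 1 and 2 than the erianin libraries did (58.5 to 62.3). edgeR's estimate of the biological coefficient of variation fell from 0.139 to 0.0421 when it was left out, and results are therefore given with and without it. Its departure followed the GC content of the transcripts, with a median difference from the other DMSO libraries of 0.33 on the log2 scale in the lowest of 3 equal classes of GC content and of -0.29 in the highest. Counts from 1 to 20 were even in 64.6% to 69.4% of cases, so a read count may include both mates of a pair, which was not tested. Of the markers of the labelled tissue, PAX8, a thyroid transcription factor, fell from 676 to 428 CPM with erianin (log2 fold change -0.66, adjusted p = 0.00403, edgeR), and the sum of the 5 thyroid markers was 644 to 742 CPM in DMSO and 421 to 435 CPM with erianin. FOXE1 was low, TSHR and NKX2-1 had no read in any library, and TG had at most 13. Of 5 epithelial markers, 4 reached a mean of 1 CPM and CDH1 had at most 9 reads, and their sum ranged from 2312 to 3131 CPM in DMSO and from 2520.3 to 2689 CPM with erianin. Of 5 leukocyte markers CD14 alone reached a mean of 1 CPM, and their sum ranged from 2.34 to 3.28 CPM in DMSO and from 3.43 to 4.97 CPM with erianin. None of 4 endothelial markers reached 1 CPM, with sums of 0.431 to 0.674 CPM in DMSO and 1.14 to 1.49 CPM with erianin. The part of these differences, that of PAX8 included, in the results below was not tested.

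Of the 10 genes, 3 rose with erianin, the feedback genes TNFAIP3 and BIRC3 and the kinase gene CHUK, and 0 fell. By edgeR's quasi-likelihood test with Benjamini-Hochberg adjustment over all 12821 genes, TNFAIP3 (1.61-fold), BIRC3 (1.61-fold) and CHUK (1.54-fold) were called upregulated, which required a log2 fold change beyond 0.5 in either direction and an adjusted p below 0.05. That is 3 of 10 genes upregulated, where 5.37% of all tested genes were upregulated, and 0 of 10 downregulated, where 3.36% were (8.73% in either direction). At an unadjusted p under 0.05 by edgeR, 4 of the 10 were higher and 0 lower. The share of all tested genes past an unadjusted p was not computed, here or for the lists below. DESeq2 gave the same called counts of 3 and 0, where 6.65% of all tested genes were upregulated and 4.14% downregulated by DESeq2. The 5 subunit genes and both IkB genes were not called. The log2 fold change was positive for 8 of the 10 and negative for 2, and its median was 0.27, while the median over all tested genes was 0.00. Without DMSO replicate 3 the median was 0.17, against 0.02 over all genes tested, and NFKB2 and RELB also turned negative. CPM ranges of the groups did not overlap for 4 genes, all higher with erianin (TNFAIP3, BIRC3, CHUK and NFKBIE), as was the case for 19.5% of all tested genes. In these bulk libraries a change in the number of cells that express a gene and a change in its level per cell cannot be told apart.

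**Figure D1:**
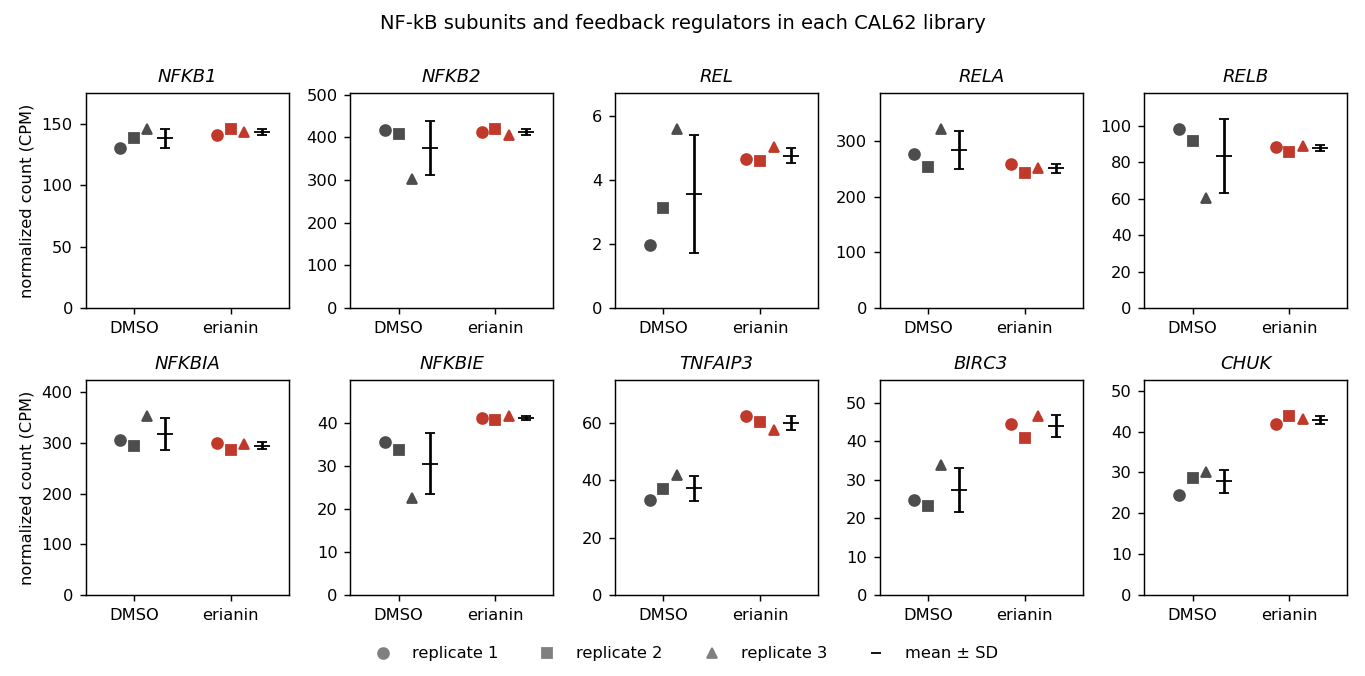
Normalized counts (CPM, vertical axes starting at 0) of the 10 genes in each DMSO (grey) and erianin (red) library, with the replicate number as the symbol and the mean ± SD (n = 3) beside the points. The erianin points of NFKBIE, TNFAIP3, BIRC3 and CHUK lie above all DMSO points, and DMSO replicate 3 (triangle) is the lowest point for NFKB2, RELB and NFKBIE and the highest DMSO point for the other 7 genes.

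TNFAIP3 (ENSG00000118503, chromosome 6, 137867188 to 137883312, plus strand, GRCh38 with GENCODE 29, as for all positions given) encodes A20, which removes and adds ubiquitin chains on signaling proteins and thereby ends NF-kB signaling. Its normalized counts were 33, 37.1 and 41.7 CPM in DMSO replicates 1, 2 and 3 and 62.4, 60.3 and 57.4 CPM in the erianin replicates. The groups were well apart, with the lowest erianin library above the highest DMSO library. The mean went from 37.3 ± 4.39 to 60.0 ± 2.49 CPM (SD, n = 3), a log2 fold change of 0.69 (SE 0.10, adjusted p = 0.00785, edgeR). Without DMSO replicate 3 it was 0.77 (adjusted p = 7.63e-12). With each library's GC trend removed it was 0.73 (adjusted p = 0.00303). Of the 10 genes, TNFAIP3 had the smallest adjusted p. Its adjusted p ranged over all alternatives from 7.63e-12 to 0.0561, and the call was lost when erianin replicate 1 (0.0561) or erianin replicate 2 (0.0554) was left out.

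BIRC3 (ENSG00000023445, chromosome 11, 102317450 to 102339403, plus strand) encodes cIAP2, a ubiquitin ligase that works at TNF receptors and restrains the kinase of the non-canonical pathway. Its counts were 24.8, 23.3 and 33.9 CPM in DMSO replicates 1, 2 and 3. With erianin they were 44.5, 40.8 and 46.6 CPM. DMSO replicate 3 was the highest of its group and still lay under every erianin library. The mean went from 27.3 ± 5.72 to 44.0 ± 2.97 CPM (SD, n = 3), with a log2 fold change of 0.69 (SE 0.15, adjusted p = 0.0245, edgeR). This was the least firm of the 3 calls. Without DMSO replicate 3 the log2 fold change was 0.87 (adjusted p = 7.69e-12), and with the GC trend removed it was 0.52 (adjusted p = 0.00555). Leaving out DMSO replicate 1 (0.0825), DMSO replicate 2 (0.0741) or erianin replicate 1 (0.105), 2 (0.0848) or 3 (0.114) took the adjusted p over the threshold, so that among the fits with 1 library left out the call held only without DMSO replicate 3. BIRC3 stands next to its paralog BIRC2 (cIAP1) on chromosome 11, and reads that fit both could be split between them. BIRC2 had 35.1 CPM in DMSO and 39.1 CPM with erianin, a log2 fold change of 0.15 that was not called (adjusted p = 0.37).

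CHUK (ENSG00000213341, chromosome 10, 100188298 to 100229619, minus strand) encodes IKKα, the kinase that drives p100 processing and is also a catalytic subunit of the canonical IKK complex. DMSO libraries held 24.6, 28.7 and 30.1 CPM. Erianin libraries held 41.8, 43.8 and 43.1 CPM. The erianin values lay close to each other, and all were above the DMSO values. Mean levels were 27.8 ± 2.87 and 42.9 ± 1.0 CPM (SD, n = 3), a log2 fold change of 0.63 (SE 0.10, adjusted p = 0.00914, edgeR), and 0.68 without DMSO replicate 3 (adjusted p = 1.32e-09). CHUK has a low GC content (36.3%), and with the GC trend removed its log2 fold change was 0.45 (adjusted p = 0.0237), under the fold-change threshold. The call was also lost without erianin replicate 1 (adjusted p = 0.0561), 2 (0.0619) or 3 (0.0616). The gene overlaps ERLIN1, on the same strand, with 16386 reads over the 6 libraries, and reads from the shared stretch may have been counted for either gene.

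NFKBIE (ENSG00000146232, chromosome 6, 44258166 to 44265788, minus strand) encodes IkB-epsilon, a slower-acting inhibitor that retains RELA and REL dimers. It had 35.4, 33.6 and 22.4 CPM in DMSO replicates 1, 2 and 3 and 41.1, 40.6 and 41.5 CPM in the erianin replicates. All erianin values were higher, and most of the spread within DMSO came from replicate 3. The log2 fold change was 0.43 (SE 0.17, adjusted p = 0.125, edgeR), so the gene was not called. With DMSO replicate 3 left out it was 0.25 (adjusted p = 0.00158), too small for a call. With the GC trend removed it was 0.55 (adjusted p = 0.00842) and was called, and the adjusted p over all alternatives ran from 0.00158 to 0.295.

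NFKBIA (ENSG00000100906, chromosome 14, 35401511 to 35404749, minus strand) encodes IkB-alpha, the inhibitor that NF-kB resynthesizes fastest after activation. Counts were 305, 294 and 353 CPM in DMSO and 300.5, 287 and 297 CPM with erianin. The groups overlapped, and apart from DMSO replicate 3 the 5 libraries were close to each other. The log2 fold change was -0.11 (SE 0.085, adjusted p = 0.442, edgeR), and -0.03 without DMSO replicate 3 (adjusted p = 0.566). NFKBIA and TNFAIP3, both feedback genes with kappaB matches in their promoters, thus differed in call, and their ratio within each library is given with the levels by length.

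**Figure D2:**
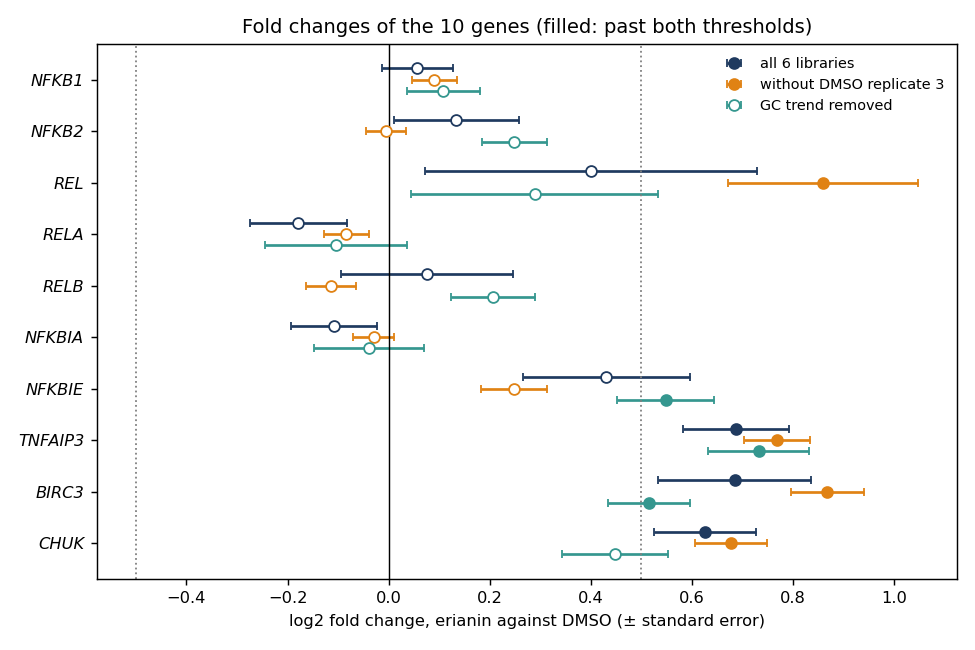
Log2 fold change of erianin against DMSO with its standard error for each gene, in all 6 libraries (blue), without DMSO replicate 3 (orange) and with each library's GC trend removed (green). Filled points passed both thresholds and dotted lines mark the fold-change threshold of 0.5. TNFAIP3 and BIRC3 are filled in all 3 fits, CHUK in the first pair, REL only without DMSO replicate 3 and NFKBIE only with the GC trend removed.

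Among the subunit genes, RELA (ENSG00000173039, chromosome 11, 65653596 to 65663094, minus strand), the p65 subunit with the main activation domain of the canonical dimer, had 276, 253 and 321 CPM in DMSO and 258, 242 and 251 CPM with erianin. The groups overlapped, and the log2 fold change of -0.18 (SE 0.096) was not called (adjusted p = 0.256, edgeR). NFKB1 (ENSG00000109320, chromosome 4, 102501329 to 102617302, plus strand), whose product p105 gives the p50 partner of RELA, had 130.4, 139 and 146 CPM in DMSO and 141, 146 and 144 CPM with erianin. It was the steadiest of the 10 genes in DMSO, with a 1.12-fold range, and its log2 fold change was 0.056 (SE 0.070, adjusted p = 0.638).

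NFKB2 (ENSG00000077150, chromosome 10, 102394110 to 102402529, plus strand), which encodes p100 and p52, had 417, 408 and 302 CPM in DMSO replicates 1, 2 and 3 and 413, 419.7 and 405 CPM with erianin. RELB (ENSG00000104856, chromosome 19, 45001430 to 45038198, plus strand), the partner of p52, had 98.1, 91.5 and 60.1 CPM in DMSO and 88.5, 85.7 and 89.0 CPM with erianin. Both non-canonical subunit genes were low in DMSO replicate 3 alone, and their groups overlapped. Neither was called, with log2 fold changes of 0.13 (SE 0.12, adjusted p = 0.511) and 0.076 (SE 0.17, adjusted p = 0.809) by edgeR. Without DMSO replicate 3 both turned, to -0.0048 for NFKB2 (adjusted p = 0.929) and to -0.11 for RELB (adjusted p = 0.0483), the latter far under the fold-change threshold. Over all alternatives the adjusted p ranged from 0.0332 to 0.929 for NFKB2 and from 0.0483 to 0.911 for RELB.

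REL (ENSG00000162924, chromosome 2, 60881521 to 60931610, plus strand) encodes c-Rel, a subunit best known from lymphocytes, and was the least expressed of the 10 genes. Its counts before normalization were 48, 102 and 174 reads in DMSO replicates 1, 2 and 3 and 159, 160 and 176 reads in the erianin replicates, or 1.97, 3.14 and 5.59 CPM against 4.66, 4.58 and 5.02 CPM. DMSO replicate 3 exceeded every erianin library, and the DMSO libraries spanned a 2.83-fold range, against 1.10-fold with erianin. With all 6 libraries the log2 fold change was 0.40 (SE 0.33) and not called (adjusted p = 0.458, edgeR). Without DMSO replicate 3 it was 0.86 (SE 0.19, adjusted p = 0.000241), which brought the number of upregulated genes to 4 of 10, where 11.4% of the 13053 genes tested without that library were upregulated, and left the number downregulated at 0 (6.11% of those genes). The adjusted p over all alternatives ranged from 0.000241 to 0.807, so whether REL was higher with erianin rests on 1 control library.

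**Figure D3:**
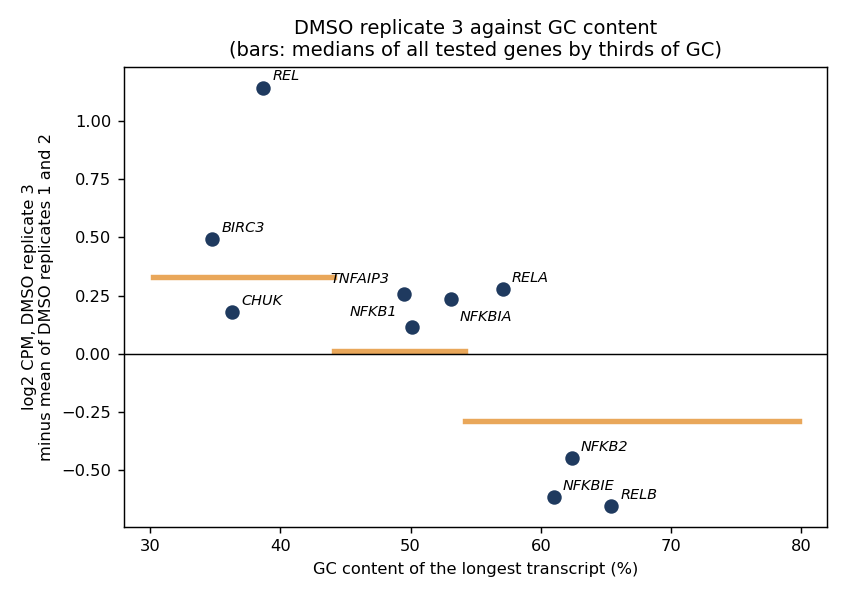
Difference in log2 CPM between DMSO replicate 3 and the mean of DMSO replicates 1 and 2 (vertical axis) against the GC content of each gene's longest transcript (horizontal axis, percent). Points are the 10 genes and orange bars the medians of all tested genes in 3 equal classes of GC content, which step from 0.33 through 0.01 to -0.29. REL, BIRC3, TNFAIP3, NFKB1, NFKBIA and RELA lie above the bar of their class, and CHUK, NFKB2, RELB and NFKBIE below it. RELA is above 0 although the bar of its class is at -0.29.

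The departure of DMSO replicate 3 touched the 10 genes unequally. The genes lowest in GC, BIRC3 (34.8%), CHUK (36.3%) and REL (38.7%), were higher in it than in the other DMSO libraries, by 0.49, 0.18 and 1.15 on the log2 scale. NFKBIE (61.0%), NFKB2 (62.4%) and RELB (65.4%) were lower in it, with differences of -0.62, -0.45 and -0.66. TNFAIP3, NFKB1 and NFKBIA, between 49.5% and 53.1% GC, were higher by between 0.12 and 0.26. RELA (57.1%) was higher by 0.28, although the median of its class, the highest in GC, was -0.29. With the GC trend of every library removed, TNFAIP3, BIRC3 and NFKBIE were upregulated and CHUK was not, again 3 of 10, where 6.06% of the 12686 genes with a GC value were upregulated, and 0 were downregulated, where 3.0% were. TNFAIP3 and BIRC3 were thus called with all libraries, without DMSO replicate 3 and with the GC trend removed, but BIRC3 lost its call when any other library was left out. DMSO replicate 3 was singled out after its distance was seen, so adjusted p-values without it may be too small.

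Levels of different genes were compared on the deposited TPM values, which scale counts by gene length. NFKBIA was the most abundant of the 10, at 199 ± 8.96 TPM in DMSO and 212 ± 7.38 TPM with erianin (SD, n = 3), followed by NFKB2 at 157 ± 33.5 and 196 ± 0.847 TPM. RELA (53.9 ± 3.88 TPM in DMSO) and RELB (50.8 ± 14.4 TPM) came next and could not be ordered by their ranges in DMSO, since RELA was above RELB in 1 of the 6 libraries, DMSO replicate 3. NFKB1 followed at 39.3 ± 1.35 TPM, with a range that overlapped that of RELB in DMSO. NFKBIE (27.3 ± 7.41 TPM) and CHUK (17.0 ± 1.41 TPM) were apart from their neighbours in both groups. BIRC3 (9.84 ± 1.52 TPM) and TNFAIP3 (9.0 ± 0.707 TPM) overlapped. REL stood last at 1.31 ± 0.609 TPM. The order with erianin was the same except that RELB (60.9 ± 2.03 TPM) had a higher mean than RELA (54.9 ± 2.21 TPM). The TPM columns do not share 1 total, reaching between 59.1% and 78.3% of the nominal TPM sum, and the median of all genes on this scale was 0.18 (log2) higher with erianin, so TPM was compared between genes of the same library rather than between groups.

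Of the summed TPM of the 5 subunit genes, NFKB2 made up the largest share in every library, between 47.0% and 53.9% in DMSO and between 53.7% and 55.1% with erianin. RELA made up between 15.4% and 23.0% in DMSO and between 14.7% and 15.6% with erianin. The share of RELB ranged from 13.7% to 18.4% and from 16.5% to 17.3%, and that of NFKB1 from 11.5% to 15.6% and from 12.7% to 13.2%. REL was under 1% throughout, between 0.227% and 0.78% in DMSO and between 0.54% and 0.599% with erianin. The erianin range lay inside the DMSO range for NFKB1, REL and RELB and overlapped it for the others. Subunit transcripts of the non-canonical branch, NFKB2 above all, thus outnumbered those of RELA and NFKB1 in treated and control cells alike.

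**Figure D4:**
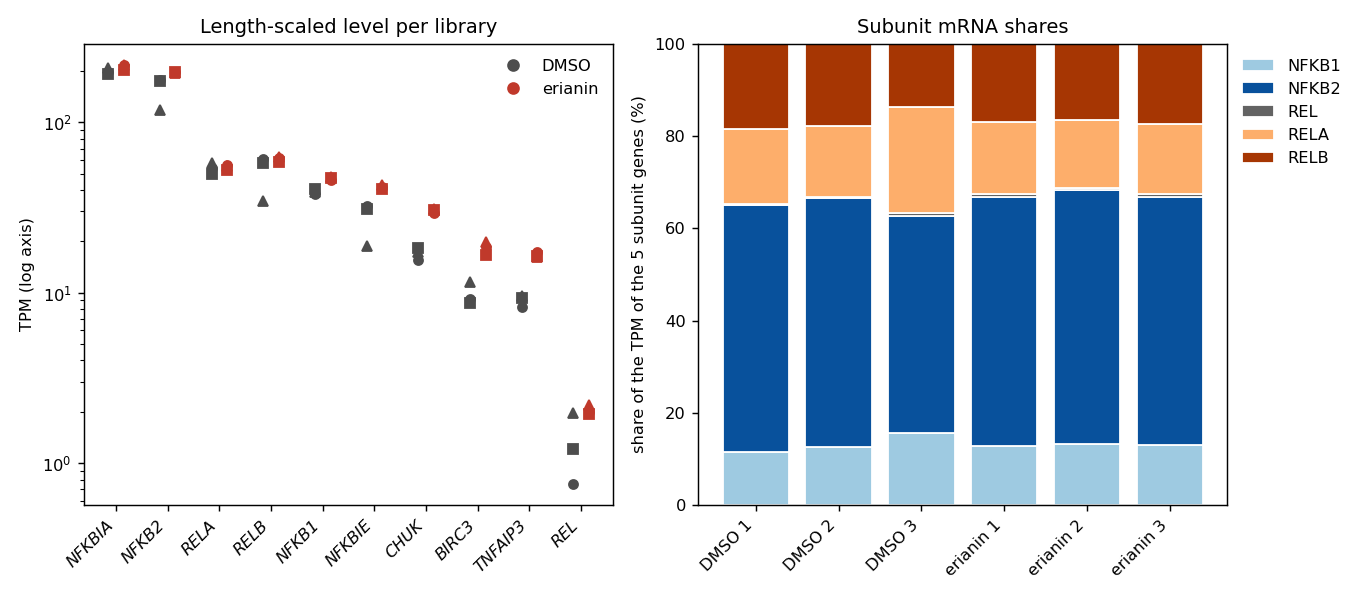
Left, TPM of each gene (log axis) in DMSO (grey) and erianin (red) libraries, with circles, squares and triangles for replicates 1, 2 and 3, ordered by the DMSO mean from NFKBIA to REL. Right, each subunit gene's share (percent) of the TPM of all 5 in each library, with NFKB2 the largest block throughout, from 47.0% in DMSO replicate 3 to 55.1% in erianin replicate 2.

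Ratios of TPM within a library do not depend on the total of its column, and 7 were computed. The ratio of TNFAIP3 to NFKBIA was 0.0417, 0.0486 and 0.0457 in DMSO and 0.0801, 0.0812 and 0.0747 with erianin. The feedback gene TNFAIP3 gained on NFKBIA in each erianin library, and the groups did not overlap. The ratio of NFKBIE to NFKBIA was 0.164, 0.161 and 0.0900 in DMSO and 0.194, 0.200 and 0.198 with erianin, also without overlap. BIRC3 was 1.15, 1.11 and 1.30 times BIRC2 in DMSO and 1.81, 1.57 and 1.81 times BIRC2 with erianin. CHUK was 2.62, 2.80 and 3.11 times IKBKB, the gene of the other IKK kinase, in DMSO and 4.46, 4.97 and 5.13 times with erianin. Transcripts of the IKKα gene thus gained on those of the IKKβ gene in every erianin library. The inhibitor NFKBIA stood at between 3.61 and 3.82 times RELA in DMSO and between 3.82 and 3.89 times with erianin, a narrow gap. NFKB2 over RELB (2.91 to 3.44 in DMSO, 3.11 to 3.35 with erianin) and TNFAIP3 over CYLD, another deubiquitinase of the pathway (1.01 to 1.45, and 1.40 to 1.56), overlapped. These ratios are descriptions of 3 libraries per group and carry no test. They do not remove a library's GC trend, and GC content was 36.3% for CHUK and 50.3% for IKBKB. The share of all gene pairs without overlap was not computed.

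The rest of the pathway was described by 5 lists of 62 genes in all that matched an identifier. Among 4 other IkB family genes, 0 were called in the main edgeR fit or by DESeq2, and the median log2 fold change was 0.03. At an unadjusted p under 0.05, 2 were higher and 0 lower, and 1 kept an adjusted p under 0.05, NFKBIB at 0.42 (adjusted p = 0.0322), named after its value was seen. With the GC trend removed NFKBIB was at 0.52 (adjusted p = 0.00535, edgeR) and was called, where 6.06% of all genes were upregulated. In each TPM fit 1 of the 4 was upregulated, where between 5.86% and 10.3% of all genes were. NFKBIZ, a nuclear IkB protein and the most abundant of the list, had 196 CPM in DMSO and 219 CPM with erianin, a log2 fold change of 0.16 (SE 0.061, adjusted p = 0.118). Of 9 IKK and TAK1 kinase genes, 7 matched an identifier and were tested (IKBKG and IKBKE matched none), with a median of -0.04. TAB1, an activating partner of the kinase TAK1, fell from 73.7 to 51.0 CPM (log2 fold change -0.53, SE 0.079, adjusted p = 0.00713). By edgeR and by DESeq2, 1 of the 7 was downregulated and 0 were upregulated. Of all tested genes 5.37% were up and 3.36% down by edgeR, and 6.65% and 4.14% by DESeq2. At an unadjusted p under 0.05, 1 was higher, MAP3K14 (the kinase NIK of the non-canonical pathway), named after its value was seen. Its log2 fold change was 0.49 (adjusted p = 0.0458), too small for a call, and 0.60 (adjusted p = 0.00449) with the GC trend removed, where it was called. The call of TAB1 was lost with upper-quartile factors (-0.48), with the GC trend removed (-0.44), on TPM (-0.33) and without erianin replicate 2 (adjusted p = 0.0578) or 3 (0.0573). The median of the kinase list was 0.28 without DMSO replicate 3. In the main edgeR fit CHUK was thus upregulated and none of the 7 was, but this depended on the settings. With all libraries kept, 1 of the 7 was upregulated under upper-quartile factors and under a stricter count filter. The same count was found on filtered TPM with either pseudocount, and with the GC trend removed. In the last of these fits MAP3K14 was called and CHUK was not. Differences between these genes were not tested.

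Of 19 adaptors and ubiquitin editors, 1 was upregulated and 2 were downregulated, where 5.37% and 3.36% of all tested genes were, with a median of -0.10. TRAF1, an adaptor that binds cIAP proteins, rose from 16.0 to 23.7 CPM (log2 fold change 0.57, SE 0.11, adjusted p = 0.0186), and its log2 fold change was 0.48, too small for a call, when DMSO replicate 3 was left out. RIPK1, the kinase scaffold at the TNF receptor, fell from 41.5 to 27.3 CPM (log2 fold change -0.61, SE 0.096, adjusted p = 0.00875). RNF31, which encodes the catalytic subunit HOIP of the linear ubiquitin ligase, fell from 52.3 to 36.0 CPM (log2 fold change -0.54, SE 0.080, adjusted p = 0.00729). IRAK1, the most abundant of the list by mean TPM over all 6 libraries though not in the DMSO group alone, had 339 and 339.6 CPM, and its log2 fold change of 0.0034 (adjusted p = 0.994) became -0.21 without DMSO replicate 3. With 1 library left out, RIPK1 lost its call without erianin replicate 2 (adjusted p = 0.0619) or 3 (0.0645) and RNF31 without erianin replicate 1 (0.0511), 2 (0.0578) or 3 (0.0552), while TRAF1 kept its call only without DMSO replicate 2. RNF31 was also under the fold-change threshold with the GC trend removed (-0.45) and with upper-quartile factors (-0.49), as were RIPK1 (-0.39) and RNF31 (-0.31) on log2(TPM + 1). Products of RIPK1 and RNF31 act in the same receptor complex as cIAP2 and A20, whose genes moved the other way. Over the 19 adaptors and ubiquitin editors, 9 log2 fold changes were positive and 10 negative, and this contrast was not tested. Of 8 tested receptor genes, 1 was upregulated (5.37% of all tested genes), TNFRSF1B (TNF receptor 2), from 2.39 to 5.29 CPM (log2 fold change 1.13, SE 0.19, adjusted p = 0.0107), and 0 were downregulated by edgeR or DESeq2 (3.36% of all tested genes by edgeR), with 2 lower at an unadjusted p under 0.05. TNFRSF1B lost its call without erianin replicate 1 (adjusted p = 0.0629) or 2 (0.0648), and 3 receptor genes were upregulated when DMSO replicate 3 was left out, where 11.4% of all genes tested were. The most abundant receptor gene, TNFRSF12A, had 473 ± 104 CPM in DMSO and 398 ± 21.2 CPM with erianin (adjusted p = 0.324).

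Among 20 tested textbook NF-kB target genes, 4 were upregulated and 0 downregulated by edgeR (6 and 0 by DESeq2), with a median of 0.24. Of all tested genes 5.37% were upregulated and 3.36% downregulated by edgeR, and 6.65% and 4.14% by DESeq2. At an unadjusted p under 0.05, 10 were higher and 5 lower, a count for which the share of all tested genes was not computed. By the adjusted p alone 5 were higher and 4 lower, where 7.22% and 7.69% of all tested genes were, so the list moved in both directions. The chemokine genes CXCL8 (71.8 to 204 CPM, log2 fold change 1.51, adjusted p = 0.000162) and CCL20 (5.25 to 17.4 CPM, 1.74, adjusted p = 0.00185) had the largest log2 fold changes among the target genes called with all libraries. TNF, named after its value was seen, had few reads, with 6, 6 and 18 in DMSO and 30, 36 and 32 with erianin. Its log2 fold change was 1.46 (adjusted p = 0.0523, not called). Without DMSO replicate 3 it was 2.13 (adjusted p = 0.000396), above CXCL8 and CCL20 but resting on 6 reads in each remaining control library. CSF2, the GM-CSF gene, rose from 46.0 to 92.6 CPM (log2 fold change 1.01, SE 0.077, adjusted p = 0.00102). BCL2A1, an anti-apoptotic BCL2 family gene, rose from 5.88 to 9.67 CPM (0.71, SE 0.14, adjusted p = 0.0178). The calls of CXCL8, CCL20 and CSF2 held with any 1 library left out, and that of BCL2A1 only without DMSO replicate 3 (adjusted p up to 0.0958 otherwise). LIF, the most abundant target by mean TPM over all 6 libraries though not in the erianin group alone, had 983 CPM in DMSO and 767 CPM with erianin, a log2 fold change of -0.36 (SE 0.091, adjusted p = 0.0386) that was under the fold-change threshold. Without DMSO replicate 3, 7 of the 20 were upregulated and 0 downregulated, where 11.4% and 6.11% of all genes tested were. The increases of TNFAIP3 and BIRC3 were smaller than those of CXCL8, CCL20 and CSF2 in the fitted log2 fold change, and these differences between genes were not tested.

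**Figure D5:**
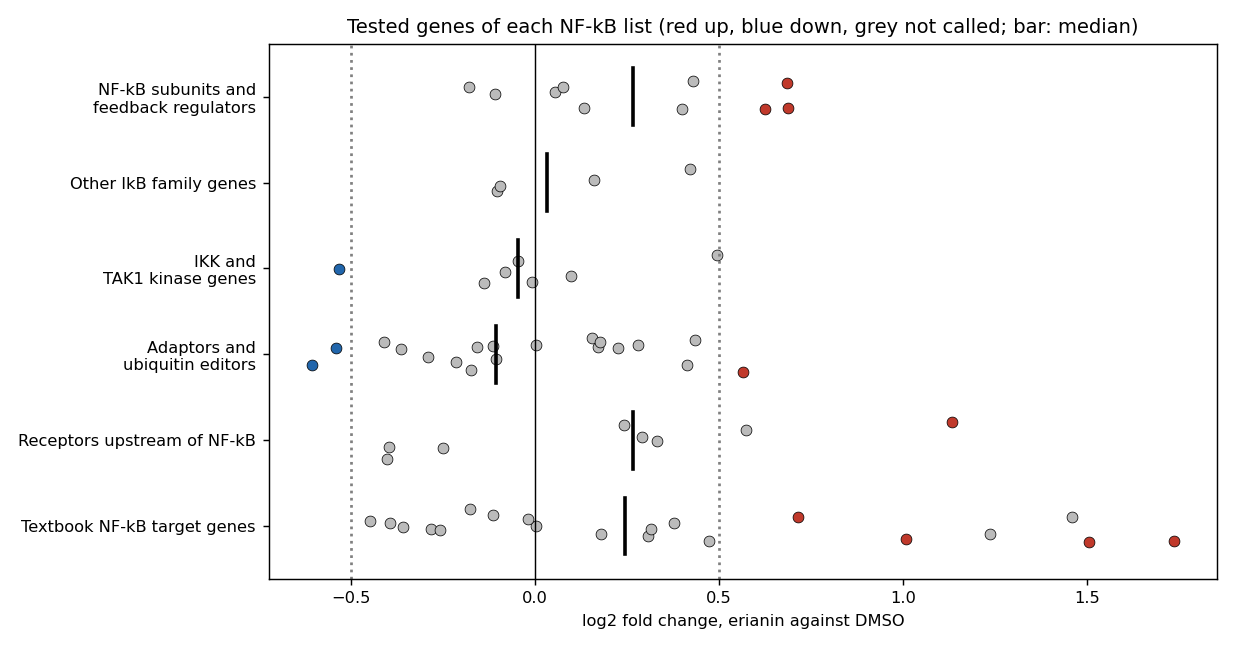
Log2 fold change of erianin against DMSO for every tested gene of the 10-gene set and the 5 pathway lists (points, spread vertically only for legibility), coloured red where upregulated, blue where downregulated and grey where not called. Black bars are medians, at 0.27 for the 10 genes and between -0.10 and 0.27 for the lists, and dotted lines mark a log2 fold change of 0.5 in either direction.

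The genes whose profile over the 6 libraries was most like that of TNFAIP3 were sought among all tested genes with at least 1 CPM, by the Euclidean distance of log2 CPM centred on each gene's own mean. The closest 3 were KLF4, a zinc finger transcription factor (distance 0.103), CNST, which encodes consortin (0.111), and ZNF143, a zinc finger transcription factor (0.134). KLF4 had 40.5 CPM in DMSO and 63.9 CPM with erianin, a log2 fold change of 0.66 against 0.69 for TNFAIP3. CNST went from 25.4 to 39.6 CPM and ZNF143 from 27.7 to 44.9 CPM. The likeness rests on 6 libraries in 2 groups, which any gene with a similar fold change shares.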

How the data were processed

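Per the labels, processing used fastp 0.23.2, STAR 2.7.10, featureCounts 2.0.1 and StringTie 2.2.1 on GRCh38. The strand setting and annotation are not given in the sources used here. The study names the BGISEQ-500 platform, while the labels describe standard Illumina library preparation. The values deposited by the authors are raw counts of reads per gene, without normalization, and TPM, scaled by gene length. Of 65807 rows in the count table, 26480 had no identifier and were not used. They held from 0.00385% to 0.00515% of a library's counts. Symbols came from the current gene table (38259 of 39168 identifiers matched), and positions and GC content from GENCODE 29.

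Counts were fitted with edgeR 4.0.16 in R 4.3.3 (filterByExpr by group, TMM, glmQLFit and glmQLFTest) with limma 3.58.1 and DESeq2 1.42.0 as alternatives. Standard errors were derived from the F statistic. The GC trend of each library was removed with a loess offset (span 0.5). TPM alternatives used a pseudocount of 1 or 0.1 on the log2 scale and genes whose mean TPM was 1 or more, so their fold changes understate changes of low genes. The fit was tested on simulated counts. Other alternatives were RLE and upper-quartile factors, other count filters, no fold-change threshold, a replicate block, and each library left out in turn. Libraries of one group differed by more than counting noise (chi-square per gene between 3.80 and 104). Correlations across genes of same-numbered deviations were 0.00138, 0.0253 and -0.0329, which gave no sign of pairing by replicate number. With 3 libraries per group and DMSO replicate 3 apart, these values cannot exclude pairing. Python 3.11.15, pandas 2.3.3 and matplotlib 3.10.9 were also used.

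The 10 genes and the pathway lists were chosen with earlier results of these data known. From the lists, the genes named were those past both thresholds (at most 4 per list by adjusted p) and the most abundant tested gene by mean TPM over all 6 libraries. BIRC2, IKBKB, CYLD and ERLIN1 were named for their relation to a gene described, and NFKBIB, MAP3K14 and TNF after their values were seen. The markers were thyroid follicular (TG, TSHR, PAX8, NKX2-1, FOXE1), epithelial (KRT8, KRT18, KRT19, EPCAM, CDH1), leukocyte (PTPRC, CD14, CD68, CD3E, ITGAM) and endothelial (PECAM1, CDH5, VWF, KDR). Some marker genes are not reported here.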

Additional observations from a re-analysis of the deposited data

How the results depend on the processing

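The number of the 10 genes upregulated was 3, and 0 were downregulated, with DESeq2, RLE or upper-quartile factors, either other count filter, all TPM fits, the replicate block, no fold-change threshold and the GC trend removed. With 1 library left out it ranged from 0 to 4: 0 without erianin replicate 1 or 2, 1 (TNFAIP3) without erianin replicate 3, 2 without DMSO replicate 1 or 2, and 4 without DMSO replicate 3. Over all genes, leaving out a library gave between 172 and 1485 upregulated and between 126 and 797 downregulated genes, against 688 and 431. The replicate block gave 384 and 281, with TNFAIP3 (adjusted p = 0.0361), BIRC3 (0.0359) and CHUK (0.0357) past the threshold. Whether the replicate numbers pair these libraries is not known. Without the fold-change threshold 986 genes were lower.

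The share of calls that were upregulated was 61.5%, 73.3% with upper-quartile factors and between 91.6% and 92.3% on TPM, where the median of all genes shifted by 0.18, 0.20 and 0.12. The TPM fits called 1098 and 94 genes with log2(TPM + 1), 1207 and 110 with log2(TPM + 0.1), and 1057 and 88 without the filter. On TPM, RELA turned to 0.026 and NFKBIA to 0.094, 0.095 and 0.094, each less than that shift.

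The 5 pathway lists held 6 upregulated and 3 downregulated genes; upper-quartile factors and GC removal each gave 10 and 1, the TPM fits 15, 16 and 14 against 0, and leaving out a library 3 to 11 and 0 to 4. With 1 library left out, NFKB2 ranged from -0.0048 to 0.21 and RELB from -0.11 to 0.21, the lowest of each without DMSO replicate 3. IRAK1, near 0, turned to -0.0017 with DESeq2, -0.0016 with RLE, -0.014 without a filter, and to -0.21, -0.00031 and -0.0092 without DMSO replicate 3, erianin replicate 1 and erianin replicate 3. The cause was not tested. Of 60 values for the 10 genes with 1 library left out, 47 kept direction and call, and of the 18 for the 3 called genes 8 did. Of 100 values under the other alternatives, 92 did, most of them for genes not called.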
